A study of Mus musculus with 12 samples.

Results

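The GIMAP genes encode the GTPases of immunity-associated proteins, a family of guanine nucleotide-binding proteins made mainly by lymphocytes. The members described were every probe set annotated to Gimap1, Gimap3, Gimap4, Gimap5, Gimap6, Gimap7, Gimap8 or Gimap9. They were 11 of the 45101 probe sets on the array, for 8 genes, and all 11 were among the 21906 probe sets (12190 genes) bright enough to be tested. The family was picked on the signal of Gimap7, already known to be much lower after anti-IgM in these data, so every change with time is given as a description with no test. The genotype differences of Gimap7 share the arrays on which that signal was seen, so they too are given with no test. Genotype calls are counted over the 9 probe sets of the other genes, unless a count is said to be over all 11.

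Splenic follicular B cells, the recirculating B cells of the lymphoid follicle, were taken from male 129SvEv mice of 8 weeks. They were kept in medium with anti-IgM at 10 µg/mL, which crosslinks the receptor for antigen. There were 6 groups of 2 arrays, namely Zfx cko cells at 0, 2 and 12 h of anti-IgM and wild-type cells at 0, 2 and 12 h. Cells of both genotypes got the same antibody dose, and a group at 0 h had no culture time with it. No group was cultured without anti-IgM, so the antibody and the time in culture cannot be told apart in any change with time. The words response to anti-IgM and after anti-IgM stand for the difference from 0 h. Zfx encodes an X-linked zinc finger transcription factor. No source used here gives the Cre line, the deleted part of the gene or the number of mice behind a sample. The RNA was hybridized in duplicate, so p-values cover the spread of these arrays alone, and it may be technical.

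A signal is the deposited brightness of a probe set, and 1 probe set's signal cannot be set against that of another. Differences are in log2(signal + 16), which understates the change of dim probe sets, and are given ± SE. A genotype difference was called higher or lower at an adjusted p under 0.05 in limma over all 21906 probe sets. Correlations between duplicate arrays ran from 0.978 to 0.987. The brightest Zfx probe set gave a mean of 2403 on cko arrays and 1012 on wild-type arrays at 0 h, 1004 and 799.6 at 2 h, and 1289 and 987 at 12 h. Since it was brighter on the arrays labelled cko and its place relative to the deletion is unknown, it does not check the genotype, and every direction between genotypes rests on the labels.

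The arrays fell into 2 sets by their control probes. The signal of the 5′ actin control was 8.41 to 19.1% of the 3′ control on the 6 arrays of cko 2 h, cko 12 h and wild type 2 h, and 1.80 to 3.33% on the 6 arrays of cko 0 h, wild type 0 h and wild type 12 h. The 18S ribosomal RNA control read 1022 to 1299 on the first 6 and 6636 to 10893 on the others. The genotype comparisons at 0 h and 2 h, the wild-type comparison of 12 h with 0 h, and the cko comparison of 12 h with 2 h lie within 1 set. Within a set the actin ratio still differed between groups. It was 10.6 and 10.8% at cko 2 h, 19.1 and 19.0% at cko 12 h, and 8.51 and 8.41% at wild type 2 h. In the other set it was 1.99 and 1.80% at cko 0 h, 3.27 and 3.33% at wild type 0 h, and 2.11 and 2.27% at wild type 12 h. Comparisons within 1 set are thus not matched for this ratio. The comparisons of 2 h with 0 h in both genotypes, of 12 h with 0 h in cko cells, of 12 h with 2 h in wild-type cells, and of the genotypes at 12 h cross from one set to the other. This division and the condition cannot be told apart there.

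GIMAP proteins share a GTP-binding domain of the AIG1 type, and several of them sit on the membranes of intracellular compartments. Work in rats and mice has tied the family to the survival of lymphocytes: loss of Gimap5 leads to lymphopenia, and Gimap1 is needed for mature T and B cells in mice. Some members bind proteins of the BCL2 family, and Gimap6 binds a GABARAP-type protein of the autophagy machinery. Anti-IgM takes a follicular B cell out of rest and toward division.

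The genes lie side by side. On the RefSeq assembly GRCm38.p6 they span chr6:48647186-48770851, or 123.7 kb, in the order Gimap8, Gimap9, Gimap4, Gimap6, Gimap7, Gimap1, Gimap5 and Gimap3. This stretch holds 8 protein-coding genes, and all 8 are members. All 8 genes had a promoter window in RefSeq on GRCm38.p6, of 250 bases before to 50 bases after the gene's start. The windows of Gimap7, Gimap3 and Gimap6 are shown because these genes carry the largest difference with time (Gimap7) and the largest genotype differences at 12 h in either direction (Gimap3 lower, Gimap6 higher in cko cells). Capitals mark 4 motifs searched on both strands, none of which overlapped another in these windows: AGGCCT (a ZFX core), CCGCCC (a box of KLF and SP factors), GGAAGT (an ETS core) and GTAAACA (a FOXO site).
Gimap7, chr6:48718371-48718670, + strand: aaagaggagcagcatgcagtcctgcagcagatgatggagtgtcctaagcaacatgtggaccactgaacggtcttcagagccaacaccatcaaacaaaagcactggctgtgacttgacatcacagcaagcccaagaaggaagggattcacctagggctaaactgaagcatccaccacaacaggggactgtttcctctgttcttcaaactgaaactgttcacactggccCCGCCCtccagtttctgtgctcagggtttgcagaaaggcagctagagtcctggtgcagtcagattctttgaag
Gimap3, chr6:48770802-48771101, - strand: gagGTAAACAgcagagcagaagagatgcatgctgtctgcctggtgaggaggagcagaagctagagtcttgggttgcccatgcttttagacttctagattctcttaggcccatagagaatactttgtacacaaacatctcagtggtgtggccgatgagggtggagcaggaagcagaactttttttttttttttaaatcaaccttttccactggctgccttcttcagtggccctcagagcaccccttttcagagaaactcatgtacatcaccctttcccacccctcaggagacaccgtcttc
Gimap6, chr6:48708195-48708494, - strand: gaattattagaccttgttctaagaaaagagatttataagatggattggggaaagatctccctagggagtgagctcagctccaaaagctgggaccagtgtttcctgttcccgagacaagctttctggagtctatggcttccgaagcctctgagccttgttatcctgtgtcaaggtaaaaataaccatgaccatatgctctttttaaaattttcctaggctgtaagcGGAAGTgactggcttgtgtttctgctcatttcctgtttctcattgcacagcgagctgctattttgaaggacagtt
Gimap7 had a CCGCCC that begins 23 bases before the start, Gimap6 a GGAAGT that begins 25 bases before it, and Gimap3 a GTAAACA that begins 247 bases before it. Of the 8 members, AGGCCT was in the windows of 2 (Gimap8 and Gimap5), CCGCCC in 2 (Gimap7 and Gimap9), GGAAGT in 4 (Gimap9, Gimap6, Gimap1 and Gimap5) and GTAAACA in 1 (Gimap3), while Gimap4 had none of the 4. Among all 32851 promoter windows of this length, 10.3% held AGGCCT, 35.7% CCGCCC, 23.8% GGAAGT and 3.65% GTAAACA. A match is a string of letters, and binding was not measured.

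On its brighter probe set, Gimap7 had the largest loss of log2 signal in the family and one of the largest among the 21906 tested probe sets. The family was picked on this fall, so its ranks below restate the choice and nothing is read from them. The brighter Gimap7 probe set, 1425084_at, read 7479.5 and 7417 on the cko arrays at 0 h, 245 and 270.3 at 2 h, and 409.5 and 419.6 at 12 h. On wild-type arrays it read 6375 and 5988 at 0 h, 291 and 313 at 2 h, and 446.5 and 557 at 12 h. All arrays at 2 h and 12 h were below all arrays at 0 h, and those at 12 h stood slightly above those at 2 h in both genotypes. The difference of 12 h from 2 h was 0.66 ± 0.10 in cko cells, within 1 set of arrays, and 0.70 ± 0.10 in wild-type cells, across the sets. The log2 difference from 0 h was -4.77 ± 0.10 in cko cells and -4.29 ± 0.10 in wild-type cells at 2 h, which was 27.3-fold and 19.5-fold lower. Counted from the lowest value, it ranked 2 of 21906 in cko cells and 6 in wild-type cells. At 12 h the differences were -4.12 ± 0.10 and -3.59 ± 0.10, at ranks 12 and 18. The dimmer Gimap7 probe set, 1444283_at, had mean signals of 308, 119 and 181 at 0, 2 and 12 h in cko cells and 342, 136 and 118 in wild-type cells. Its differences at 2 h were -1.28 ± 0.29 and -1.27 ± 0.29, at ranks 2852 and 2477. At 12 h they were -0.71 ± 0.29 and -1.50 ± 0.29, at ranks 5369 and 755.

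**Figure D1:**
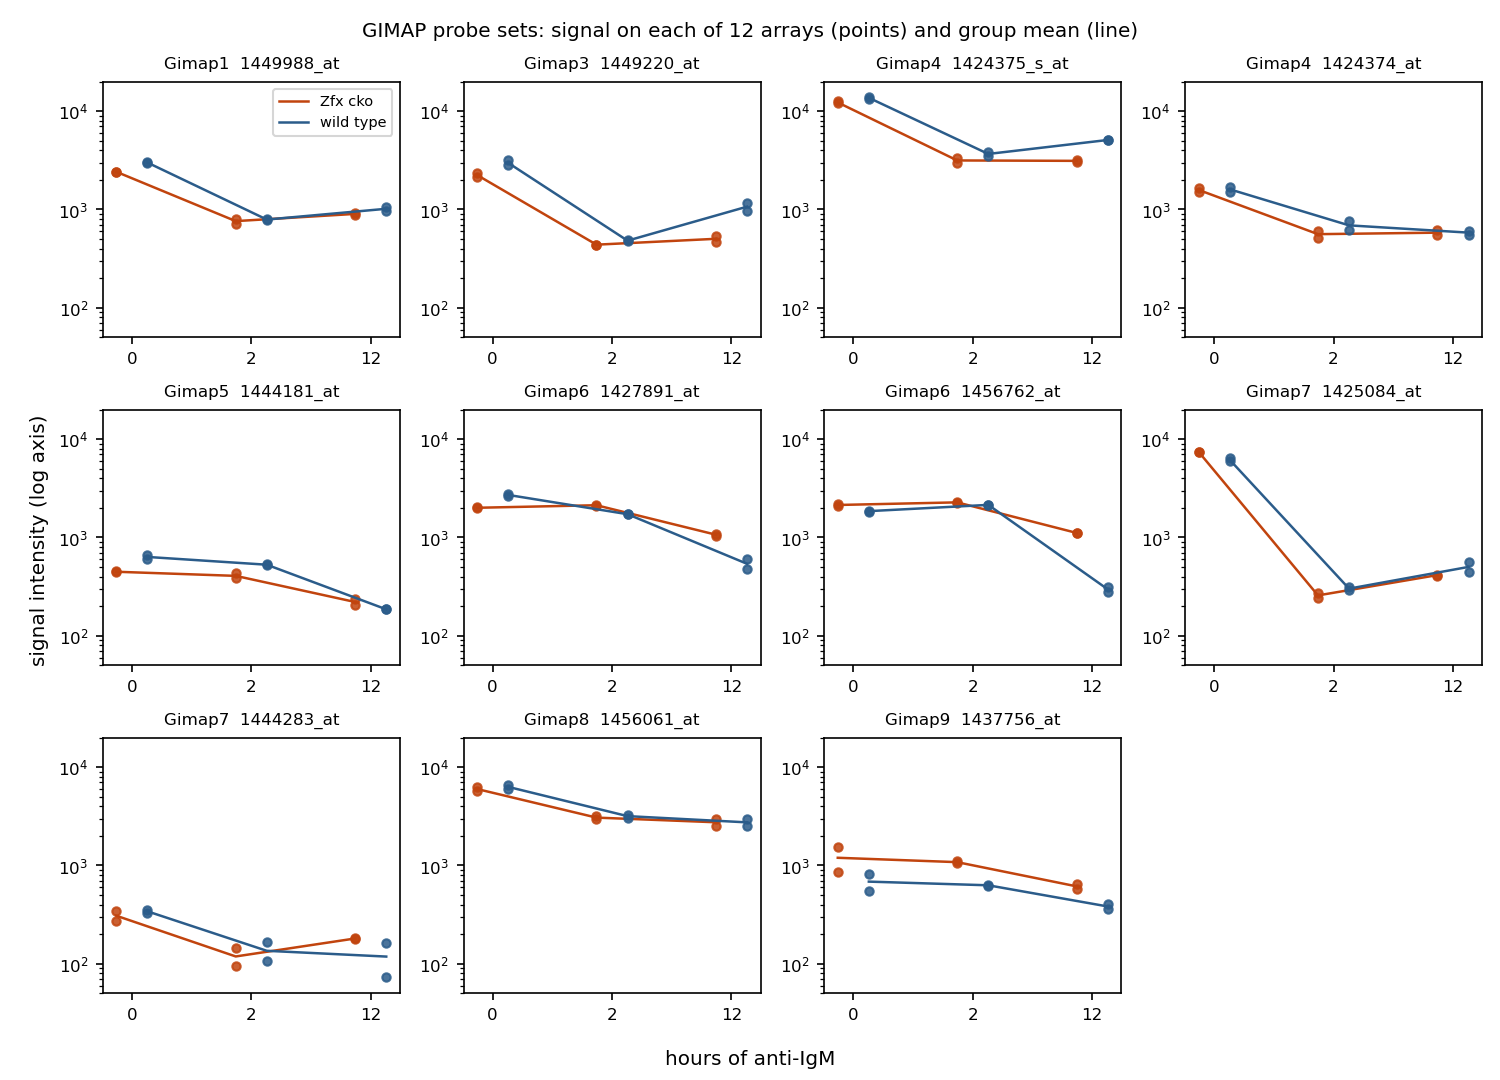
Signal intensity (log axis) of the 11 GIMAP probe sets against hours of anti-IgM, with 1 point per array, Zfx cko left of wild type at each time, and lines through the group means. Gimap1, Gimap3, Gimap4, Gimap7 and Gimap8 are already low at 2 h, while Gimap5, Gimap6 and Gimap9 are low at 12 h.

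Gimap1, Gimap3, Gimap4 and Gimap8 were also lower at 2 h. Gimap3 1449220_at, the gene of a close relative of Gimap5, read 2351.5 and 2129.9 at 0 h, 438 and 439 at 2 h and 537 and 469 at 12 h on cko arrays. On wild-type arrays it read 3151 and 2811 at 0 h, 479 and 485 at 2 h and 1170.4 and 964 at 12 h. At 2 h no array reached the levels of 0 h, and at 12 h the wild-type arrays stood above the wild-type arrays of 2 h. That wild-type difference of 12 h from 2 h, 1.12 ± 0.10, crosses the control-probe division, while in cko cells, within 1 set, it was 0.19 ± 0.10. The difference from 0 h at 2 h was -2.31 ± 0.10 in cko cells and -2.59 ± 0.10 in wild-type cells.

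Gimap4 encodes a family member that speeds T cell death in mice. Its brighter probe set 1424375_s_at, whose suffix marks probes shared by several transcripts, read 11974 and 12526 at 0 h, 2999 and 3300.0 at 2 h and 3042 and 3198 at 12 h on cko arrays, and 13409 and 13905 at 0 h, 3479 and 3856 at 2 h and 5128 and 5046 at 12 h on wild-type arrays. The values of 2 h and 12 h were below those of 0 h on every array, with differences at 2 h of -1.96 ± 0.06 in cko and -1.89 ± 0.06 in wild-type cells. The second Gimap4 probe set, 1424374_at, was also lower at 2 h than at 0 h, by -1.47 ± 0.12 and -1.21 ± 0.12.

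Gimap1 1449988_at read 2419 and 2413 at 0 h, 809 and 713 at 2 h and 882 and 921 at 12 h on cko arrays. On wild-type arrays it read 2972.5 and 3029 at 0 h, 799.6 and 779 at 2 h and 1059.6 and 972 at 12 h. It was at 31.5% of its own 0 h mean in cko cells and 26.3% in wild-type cells at 2 h, and at 37.3% and 33.9% at 12 h. Gimap8 1456061_at, the gene of a large member with several GTPase domains, read 6325 and 5654 at 0 h, 3168 and 2963 at 2 h and 2952 and 2545 at 12 h on cko arrays. On wild-type arrays it read 6620.0 and 5979 at 0 h, 3295 and 3052 at 2 h and 2533.5 and 2951 at 12 h. Its difference at 2 h was -0.96 ± 0.09 in cko and -0.98 ± 0.09 in wild-type cells, so 51.2% and 50.4% of the 0 h signal was left.

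Gimap5, Gimap6 and Gimap9 followed another course in their signals, though comparisons of 2 h with 0 h cross the control-probe division. With a term for that division in an additive model, the 2 h term was -0.85 for Gimap5 and -1.32 and -1.56 for Gimap6, but 0.013 for Gimap9. By its construction, that model sets the division term from the genotype difference at 12 h beyond the shared genotype term. Its 2 h term takes that amount off, as if all of it were due to the division. That cannot be checked here, so no 2 h course is read from these terms. Within 1 set, the cko arrays of 12 h differed from those of 2 h by -0.84 ± 0.12 for Gimap5 and -0.80 ± 0.21 for Gimap9. The same difference was 0.24 ± 0.08 for Gimap1 and -0.16 ± 0.09 for Gimap8. Gimap5 1444181_at read 454 and 442 at 0 h, 383 and 431 at 2 h and 237 and 204 at 12 h on cko arrays, and 666 and 601 at 0 h, 534 and 522 at 2 h and 185 and 186 at 12 h on wild-type arrays. Its signal at 2 h was 90.8% of that at 0 h in cko cells and 83.4% in wild-type cells, and at 12 h 49.2% and 29.3%. The low values were thus those of 12 h, and the arrays of 0 h and 2 h lay above them in both genotypes.

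Gimap6 had 2 bright probe sets. Its 1427891_at read 2035 and 1972 at 0 h, 2162 and 2091 at 2 h and 1087 and 1046 at 12 h on cko arrays, and 2779 and 2636.5 at 0 h, 1727 and 1721 at 2 h and 599.7 and 480.5 at 12 h on wild-type arrays. Its 1456762_at read 2197 and 2081 at 0 h, 2312 and 2236 at 2 h and 1113 and 1111 at 12 h on cko arrays, and 1834 and 1869.6 at 0 h, 2149 and 2138 at 2 h and 312 and 282 at 12 h on wild-type arrays. Both were lowest at 12 h, and on both the wild-type arrays of 12 h were the lowest of all 12 arrays. At 12 h they kept 53.2 and 52.0% of their 0 h mean in cko cells and 19.9 and 16.04% in wild-type cells. Within the set of arrays with the higher actin ratio, the cko arrays of 12 h differed from those of 2 h by -0.98 ± 0.09 and -1.02 ± 0.07, and within the other set the wild-type arrays of 12 h differed from those of 0 h by -2.30 ± 0.09 and -2.58 ± 0.07.

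Gimap9 1437756_at read 1544 and 850.4 at 0 h, 1101.5 and 1059.7 at 2 h and 645 and 581 at 12 h on cko arrays. On wild-type arrays it read 814 and 556 at 0 h, 619 and 638 at 2 h and 360.0 and 406 at 12 h. The duplicates at 0 h lay far apart, the arrays of 2 h lay between them in both genotypes, and those of 12 h were below all others of their genotype. The difference at 2 h was -0.08 ± 0.21 in cko and -0.10 ± 0.21 in wild-type cells, and its sign turned in both when every array was scaled to the same median. That scaling also turned the small 2 h difference of Gimap5 in cko cells. At 12 h Gimap9 differed from 0 h by -0.89 ± 0.21 in cko and -0.79 ± 0.21 in wild-type cells.

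**Figure D2:**
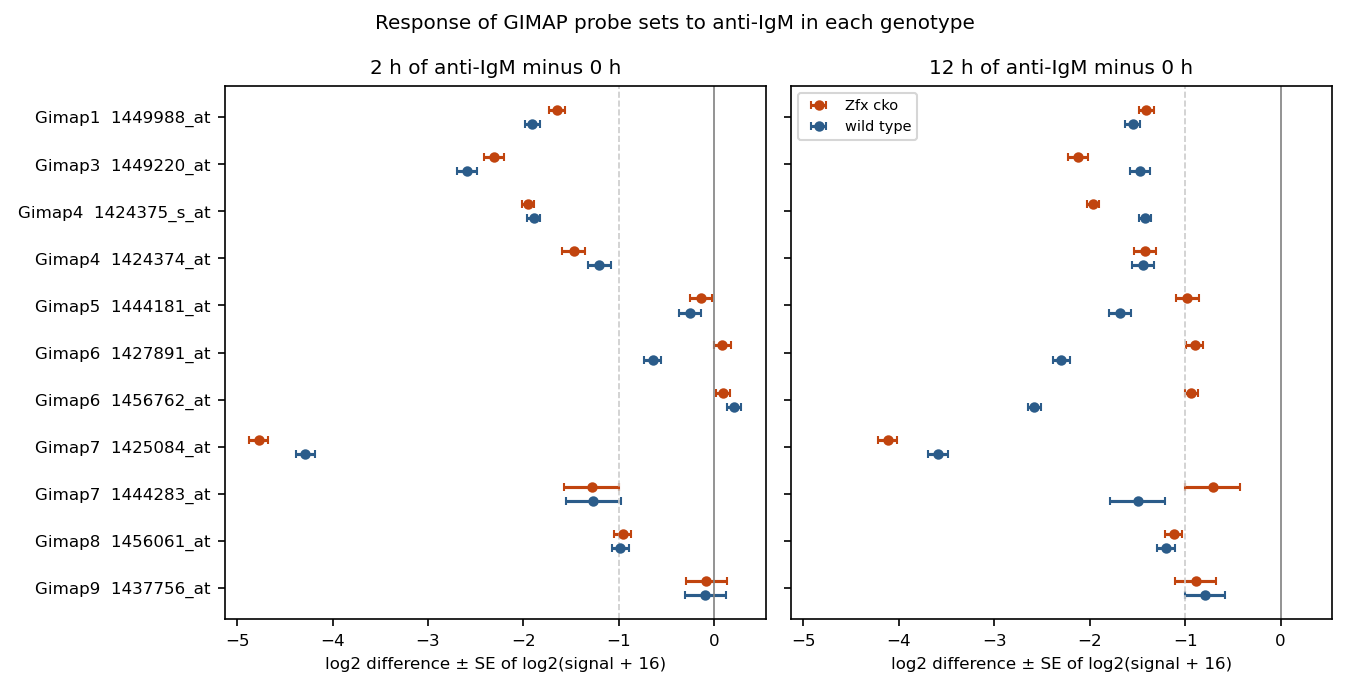
Log2 differences of the 11 GIMAP probe sets at 2 h (left) and 12 h (right) from 0 h, with SE bars from the fit, for Zfx cko (above) and wild type (below). The dashed line marks a 2-fold lower signal, which 6 probe sets passed in each genotype at 2 h, and 6 in cko and 10 in wild type at 12 h.

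Over the family, the median difference from 0 h at 2 h was -1.28 in cko cells and -1.21 in wild-type cells, against -0.19 and -0.14 over all tested probe sets. At 12 h it was -1.12 in cko and -1.50 in wild-type cells, against -0.14 and -0.004. Of the 11 probe sets, 6 were at least 2-fold lower at 2 h in cko cells and 6 in wild-type cells, where 19.7% and 16.9% of all probe sets were. At 12 h 6 were at least 2-fold lower in cko cells and 10 in wild-type cells, where 15% and 9.29% of all were. The family was chosen with this response known, so nothing is read from these counts. Fewer cells of a type and less RNA per cell cannot be told apart in such samples.

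Over the 6 group means, the early members moved together, as a description over groups that share arrays and depth of signal. Gimap7 correlated with Gimap1 at r = 0.988, with Gimap4 at 0.976, with Gimap8 at 0.955 and with Gimap3 at 0.951, and with Gimap5, Gimap6 and Gimap9 at 0.466, 0.451 and 0.322. Gimap5 and Gimap6 correlated at 0.922. Adjacent genes thus followed unlike courses over these groups, since Gimap6 lies between Gimap4 and Gimap7 and Gimap5 between Gimap1 and Gimap3. The groups span both sets of arrays, and the part of the control-probe division in these courses cannot be told apart.

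**Figure D3:**
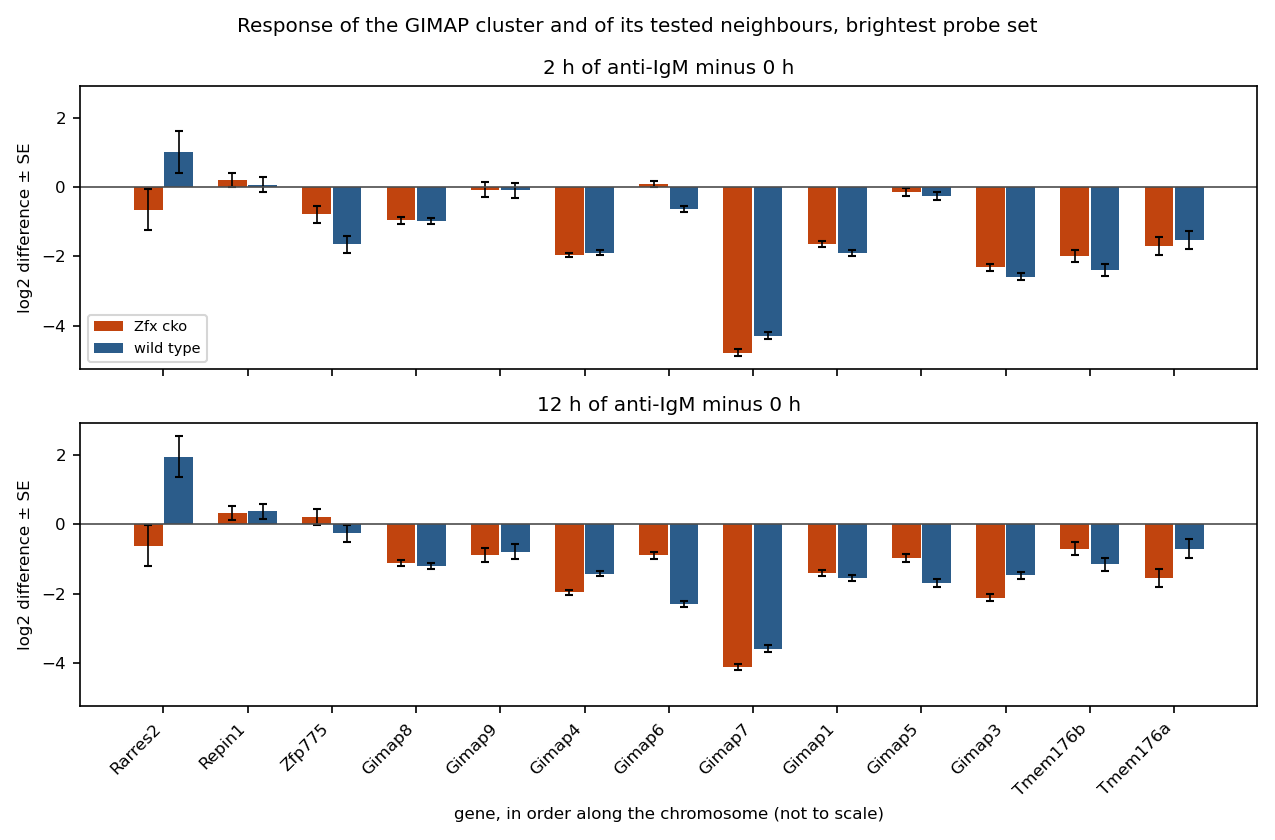
Log2 difference (bars, ± SE) at 2 h (top) and 12 h (bottom) from 0 h for the brightest probe set of each GIMAP gene and of its tested neighbours in chromosomal order, Zfx cko left of wild type. At 2 h Gimap9, Gimap6 and Gimap5 lie between -0.65 and 0.09, among members that are further below 0, and Tmem176b and Tmem176a, right of the cluster, are also below 0. Both Tmem176 genes are dim, and the 2 h differences cross the control-probe division.

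Of the 4 protein-coding neighbours on each side, 5 had a tested probe set. Tmem176b, which encodes a transmembrane protein, differed from 0 h at 2 h by -2.00 ± 0.18 in cko and -2.39 ± 0.18 in wild-type cells, and its neighbour Tmem176a by -1.70 ± 0.26 and -1.52 ± 0.26. On the other side, Zfp775, a zinc finger gene, differed by -0.78 ± 0.24 and -1.65 ± 0.24, and Repin1 by 0.21 ± 0.21 and 0.07 ± 0.21. Rarres2, the gene of chemerin, had wide errors, at -0.65 ± 0.59 and 1.01 ± 0.59.

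Genes with a course most like that of Gimap7 over the 6 group means were Spns3, Lrig2, Nkg7, Uba7, Cdc42ep3 and Vps18, with r from 0.994 to 0.997 among 2399 genes that spanned at least 2 log2 units. Nkg7, a granule protein gene of natural killer and cytotoxic T cells, had mean signals of 381, 46.9 and 78.0 at 0, 2 and 12 h in cko cells and 345, 60.8 and 71.8 in wild-type cells. The genes most like the mean of the 8 GIMAP genes were Tgfbr3, Atp8a1, Vcam1, Trp53inp2, Pld4 and H1f2, with r from 0.990 to 0.996.

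Between the genotypes members differed in both directions. The median difference of the 11 probe sets, cko minus wild type, was -0.15 at 0 h, -0.13 at 2 h and 0.003 at 12 h, against 0.01, -0.004 and -0.11 over all tested probe sets. At 0 h Gimap1 was lower in cko cells (-0.31 ± 0.08, adjusted p = 0.01 in limma), as were Gimap3 (-0.41 ± 0.10, adjusted p = 0.01) and Gimap5 (-0.48 ± 0.12, adjusted p = 0.007). Gimap9 was higher in cko cells (0.75 ± 0.21, adjusted p = 0.018). The Gimap6 probe sets disagreed: 1427891_at was lower (-0.43 ± 0.09, adjusted p = 0.0028) and 1456762_at higher (0.21 ± 0.07, adjusted p = 0.048), so no direction can be given for the gene. The call of 1456762_at was lost in 14 of 21 other settings. Among them were median scaling (0.13, adjusted p = 0.28 in limma) and a fit without an intensity trend (adjusted p = 0.13 in limma). In all, 4 of the 9 probe sets of genes other than Gimap7 were called lower and 2 higher, where 13.9% of all tested probe sets were lower and 13.6% higher. Gimap8 differed by -0.07 ± 0.09 (adjusted p = 0.61). Gimap7 1425084_at, given without a test, differed by 0.27 ± 0.10, with both cko arrays above both wild-type arrays. The dimmer Gimap7 probe set, 1444283_at, differed by -0.15 ± 0.29. The call for Gimap9 was lost without the first cko array, at 0.33, or without the second wild-type array, at 0.49. Single arrays of 0 h also decided the other calls except that of Gimap6 1427891_at: Gimap1 was not called without the second wild-type array (adjusted p = 0.059), Gimap3 without the second cko or the first wild-type array (adjusted p = 0.087 and 0.098), Gimap5 without the first wild-type array (adjusted p = 0.062), and Gimap6 1456762_at without any 1 array of 0 h (adjusted p from 0.072 to 0.21).

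At 2 h Gimap5 was lower in cko cells (-0.37 ± 0.12, adjusted p = 0.037) and so was Gimap4 on 1424375_s_at (-0.22 ± 0.06, adjusted p = 0.025). Gimap9 was again higher (0.77 ± 0.21, adjusted p = 0.02), and Gimap6 was higher on 1427891_at (0.30 ± 0.09, adjusted p = 0.028) but at 0.08 ± 0.07 on its other probe set (adjusted p = 0.47). These 2 lower and 2 higher calls stand against 11.5% and 10.1% of all probe sets. Gimap7 1425084_at, without a test, differed by -0.22 ± 0.10, and 1444283_at by -0.17 ± 0.29. The 4 calls were reduced to 0 or 1 when any array of 2 h was left out, with 2 to 6 of all 11 probe sets at an unadjusted p under 0.05 in limma.

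The largest genotype differences of the family, of Gimap6 and Gimap3, were those at 12 h. Gimap6 was higher in cko cells on both probe sets, by 0.97 ± 0.09 (adjusted p = 6.5e-07) and 1.85 ± 0.07 (adjusted p = 1.7e-10), which was 1.96-fold and 3.61-fold. Gimap3 was lower by a log2 difference of -1.06 ± 0.10 (adjusted p = 1.4e-06), or 2.08-fold, and Gimap4 by -0.70 ± 0.06 on 1424375_s_at (adjusted p = 5.7e-07). The second Gimap4 probe set gave -0.002 ± 0.12 (adjusted p = 0.99), so the Gimap4 probe sets did not show the same difference. Gimap9 was higher (0.66 ± 0.21, adjusted p = 0.021), as at the other times, though not without the first cko or the first wild-type array of 12 h (adjusted p = 0.11 each). Gimap7 1425084_at, without a test, differed by -0.26 ± 0.10, by -0.10 without the second wild-type array of 12 h and by -0.04 with every array scaled to the same median. The dimmer Gimap7 probe set, 1444283_at, differed the other way, by 0.64 ± 0.29, so no direction can be given for the gene. The 3 higher and 2 lower calls of the other genes stand against 22.7% and 25.4% of all probe sets, and this comparison crosses the control-probe division.

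**Figure D4:**
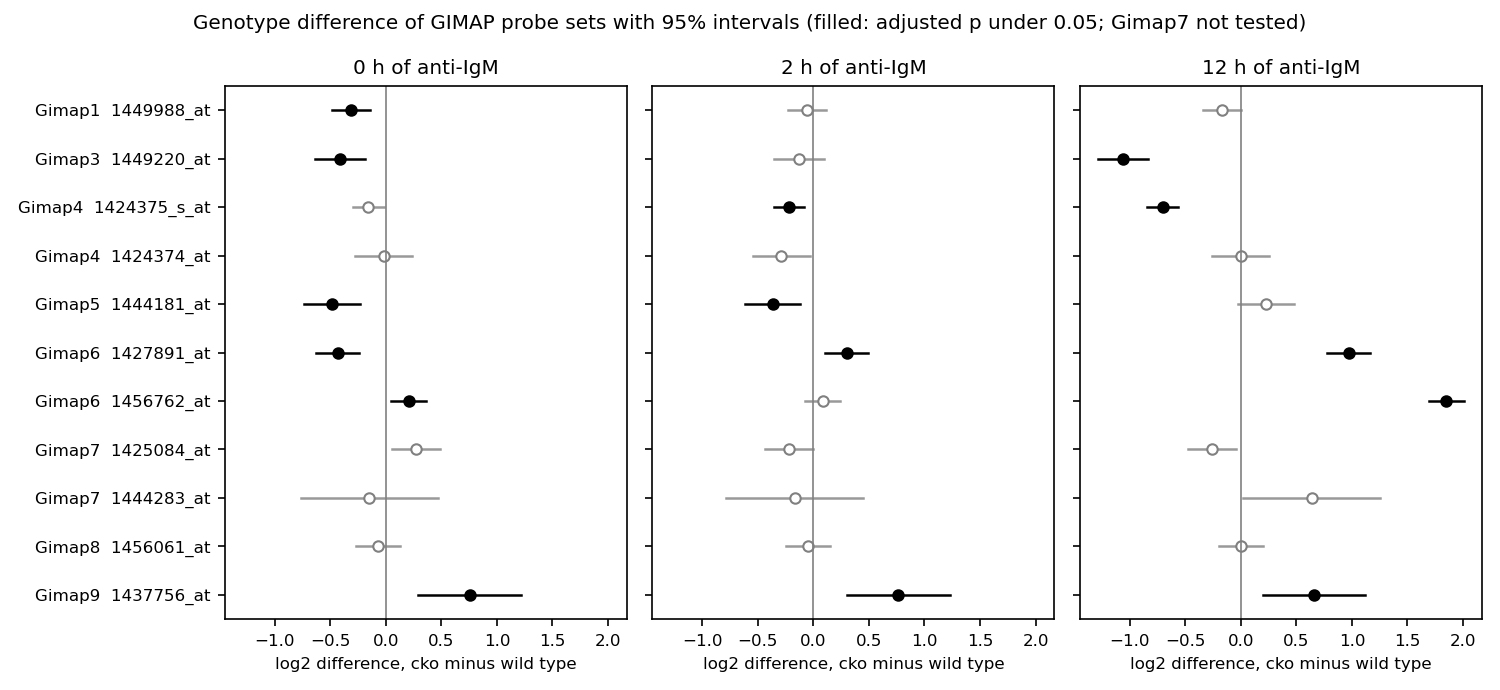
Log2 difference between Zfx cko and wild type (cko minus wild type) with 95% intervals for the 11 GIMAP probe sets at 0, 2 and 12 h, filled where the adjusted p was under 0.05, with Gimap7 drawn open because it was not tested. Gimap9 lies to the right at all 3 times, and at 12 h both Gimap6 probe sets lie to the right and Gimap3 to the left.

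The responses of 5 probe sets at 12 h and 1 at 2 h differed between the genotypes, tested as the interaction of genotype with time for the 9 probe sets of genes other than Gimap7. At 12 h the loss of Gimap6 signal was smaller in cko cells by 1.40 ± 0.13 (adjusted p = 9.7e-07) and 1.65 ± 0.10 (adjusted p = 3.4e-08), and that of Gimap5 by 0.71 ± 0.16 (adjusted p = 0.0033). For Gimap3 (-0.65 ± 0.15, adjusted p = 0.0031) and Gimap4 1424375_s_at (-0.55 ± 0.09, adjusted p = 0.00025) cko cells stood further below their 0 h level than wild-type cells. The second Gimap4 probe set, 1424374_at, did not share this, at 0.018 ± 0.17 (adjusted p = 0.95). These 3 higher and 2 lower calls stand against 20% and 20.4% of all probe sets, and the comparison crosses the control-probe division. The Gimap3 call was lost with every array scaled to the same median (-0.36, adjusted p = 0.073) and the Gimap4 call under quantile normalization (-0.21, adjusted p = 0.09).

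At 2 h 1 of the 9 was called, Gimap6 1427891_at (0.73 ± 0.13, adjusted p = 0.0015), in a comparison that is balanced over the division. Its other probe set gave -0.12 ± 0.10 (adjusted p = 0.47). The 1 higher and 0 lower calls stand against 7.72% and 9.08% of all probe sets, and at an unadjusted p under 0.05 in limma there were 2 and 0. Gimap7 1425084_at, given without a test, had interaction values of -0.49 ± 0.14 at 2 h and -0.53 ± 0.14 at 12 h. The dimmer Gimap7 probe set, 1444283_at, had -0.018 ± 0.40 and 0.79 ± 0.40, so the probe sets disagreed in sign at 12 h.

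The B cell identity of the samples showed in Cd79b, the gene of a B cell receptor chain, with mean signals of 22643, 6628 and 14811 at 0, 2 and 12 h in cko cells and 22632, 7485 and 10834 in wild-type cells, and in Ms4a1, the gene of CD20, at 11188, 10520.5 and 11842 in cko cells and 9811, 9299 and 4759 in wild-type cells. The summed signal of the 9 of 10 B cell markers on the array was 93579 to 94823 at 0 h, 31777 to 31918 at 2 h and 40686 to 41982 at 12 h on cko arrays. The same sum on wild-type arrays was 81853 to 82490.4 at 0 h, 33611 to 35218 at 2 h and 38890 to 39781 at 12 h. The B cell markers were thus also lower after anti-IgM: 7 of the 9 in cko cells and 6 in wild-type cells were at least 2-fold lower at 2 h, where 19.7% and 16.9% of all probe sets were. Cd22, the gene of an inhibitory co-receptor of B cells, had means of 22312, 1478 and 2775 in cko cells and 19719, 1881 and 8308 in wild-type cells, and Pax5, a B cell transcription factor gene, had 851, 97.2 and 437 in cko and 741, 199 and 589 in wild-type cells.

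Markers of T cells are given because those cells express GIMAP genes too. The summed signal of the 15 of 16 markers on the array was 3552 to 3744 at 0 h, 1840 to 1847 at 2 h and 1409 to 1548 at 12 h on cko arrays. On wild-type arrays it was 3987 to 4218 at 0 h, 1830 to 1933 at 2 h and 1088 to 1286 at 12 h. It was lower after anti-IgM, like the GIMAP probe sets. At 0 h the sum was lower on both cko arrays than on both wild-type arrays, and its brightest marker, Cd2, had means of 1431 in cko and 1643 in wild-type cells. At 12 h Cd2 was at 322.9 and 91.6, so the sum and its course lean on this 1 marker. Whether the Cd2 signal came from T cells was not tested. Single markers went either way at 0 h: Bcl11b was at 196 and 338, Cd3d at 212.4 and 212.7, and Zap70 at 291 and 189. Of the 14 tested markers 1 was called higher and 1 lower in cko cells at 0 h, where 13.6% and 13.9% of all probe sets were. Cd3e, a chain of the T cell receptor complex, had means of 155.6, 13.0 and 18.7 in cko cells and 160.1, 11.9 and 7.3 in wild-type cells at 0, 2 and 12 h, while Cd4 was at 16.1 or less in every group. The part of T cells in the GIMAP values was not tested.

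The sums of the other marker lists were also highest at 0 h. The 7 of 8 natural killer cell markers on the array summed to 872 to 1023 on cko arrays at 0 h and 338 to 372 at 12 h, against 679 to 778 and 329 to 350.0 on wild-type arrays. The 10 myeloid markers summed to 9554 to 9624 on cko arrays at 0 h, 2371 to 2634 at 2 h and 2982 to 3095 at 12 h, against 20568 to 21341, 13646 to 13696 and 7584 to 8450 on wild-type arrays. The 6 of 7 erythroid and platelet markers summed to 187 to 441 on cko arrays and 398 to 659 on wild-type arrays. The brightest of the myeloid markers was S100a8, a calcium-binding protein gene of neutrophils, with means of 4594, 1017 and 939.6 at 0, 2 and 12 h in cko cells and 11983, 7032 and 4641 in wild-type cells. The myeloid markers did not all go this way between the genotypes. At 0 h S100a9 (973 in cko, 4034 in wild type), Ngp (1422, 2710) and Lyz2 (707, 1104) were also lower in cko cells. Csf1r was higher in cko cells (1591, 829), and Cd68 (51.8, 40.8) and Adgre1 (117, 120) differed little. Itgam, the gene of CD11b, was at 11.6 or less in every group, and the parts of these cells in the GIMAP values were not tested.

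Other gene groups were described by their brightest probe sets, and of these the autophagy and BCL2 family lists bear on the family's known partners. Of the 11 tested interferon-inducible GTPases of the GBP, IRG and related families, 8 in cko cells and 6 in wild-type cells were at least 2-fold lower at 2 h, where 19.7% and 16.9% of all probe sets were. Their median differences at 2 h were -1.33 in cko and -1.34 in wild-type cells, against -0.19 and -0.14 over all. Ifi47, an IRG protein gene, differed by -1.95 ± 0.07 and -1.34 ± 0.07, Igtp by -1.33 ± 0.12 and -1.59 ± 0.12, and Gbp2 by -3.01 ± 0.17 and -2.58 ± 0.17, while Gbp3 differed by -0.15 ± 0.15 and -0.50 ± 0.15. Between the genotypes 2, 3 and 5 of them were called higher in cko cells at 0, 2 and 12 h, and 0 lower at each time. Over all probe sets 13.6, 10.1 and 22.7% were called higher at these times and 13.9, 11.5 and 25.4% lower. At 12 h the higher genes included Gbp3 (1.78 ± 0.15, adjusted p = 3e-07), a guanylate-binding protein gene, and Igtp (1.22 ± 0.12, adjusted p = 9.6e-07). The 12 h genotype values of this list and of those that follow cross the control-probe division.

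Of the 17 autophagy genes, 11 were called higher and 4 lower in cko cells at 12 h, at a median of 0.61 against -0.11 over all probe sets, of which 22.7% were called higher and 25.4% lower. Atg3, the gene of the enzyme that conjugates LC3 and GABARAP proteins to lipid, was higher by 1.08 ± 0.08 (adjusted p = 4.8e-08) and Gabarap by 0.61 ± 0.08 (adjusted p = 2.2e-05). The LC3 genes went the other way, with Map1lc3a at -1.53 ± 0.08 (adjusted p = 1.7e-09) and Map1lc3b at -0.35 ± 0.06 (adjusted p = 0.00028). At 0 h 1 was called higher and 4 lower, against 13.6 and 13.9% of all, and at 2 h 3 and 5, against 10.1 and 11.5%. Nothing is read from these counts about Gimap6.

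Of the 12 tested BCL2 family genes, 3 were called higher and 4 lower in cko cells at 12 h, 2 and 1 at 0 h, and 1 and 2 at 2 h. These counts are near the shares of all probe sets called higher and lower, which were 22.7 and 25.4% at 12 h, 13.6 and 13.9% at 0 h, and 10.1 and 11.5% at 2 h. Bcl2l1, the gene of the survival protein BCL-XL, was lower at 12 h by -1.39 ± 0.17 on the log2 scale (adjusted p = 1.2e-05), Bcl2 by -0.36 ± 0.06 (adjusted p = 2e-04) and Mcl1 by -0.38 ± 0.05 (adjusted p = 1.4e-05). Bcl2l11, the gene of the death-promoting BIM, differed by 0.07 ± 0.11 (adjusted p = 0.61). With time, Bcl2 was lower at 2 h than at 0 h in both genotypes, at -2.17 ± 0.06 in cko and -2.24 ± 0.06 in wild-type cells, and Bcl2l11 was higher, at 1.29 ± 0.11 and 1.81 ± 0.11.

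Of the 16 tested genes of quiescence and recirculation, 4 were at least 2-fold lower at 2 h in each genotype, where 19.7% in cko and 16.9% in wild-type cells of all probe sets were. Their medians at 2 h were -0.19 in cko and 0.03 in wild-type cells, against -0.19 and -0.14 over all. At 12 h 5 in cko and 6 in wild-type cells were at least 2-fold lower, where 15% and 9.29% of all were, and the medians were -0.69 and -0.82, against -0.14 and -0.004 over all. Foxp1, a transcription factor gene of resting lymphocytes, differed at 2 h by -0.32 ± 0.05 and -0.12 ± 0.05, and Bach2, a repressor of plasma cell fate, by 0.20 ± 0.07 and 0.26 ± 0.07. Between the genotypes 4 were called higher and 6 lower in cko cells at 0 h, 4 and 3 at 2 h, and 6 and 3 at 12 h, against 13.6 and 13.9%, 10.1 and 11.5%, and 22.7 and 25.4% of all probe sets. Btg2, an antiproliferative gene, was higher in cko cells at each time, by 0.46 ± 0.07 (adjusted p = 0.00028), 0.68 ± 0.07 (adjusted p = 1.4e-05) and 2.02 ± 0.07 (adjusted p = 7e-11).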

How the data were processed

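Expression was measured on 12 mouse whole-genome arrays of amplified RNA from sorted B cells, 2 per combination of genotype and time. The deposited values are linear signal intensities from the authors, made with GCOS 1.4 per the submitters' processing notes. A check of the values gave a trimmed mean (2% off each end) of 250 on every array. No source used here gives detection calls or the summarisation method.

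Signals were used as log2(signal + 16) with no further normalization. Probe sets were named from the platform annotation. Left out of 45101 were 64 controls, 9160 without a symbol and 932 with several, and 99.4% of the 34945 with 1 symbol matched RefSeq by Entrez identifier. Those with a mean above the 40th percentile (5.14) were tested in limma 3.58.1 (R 4.3.3), with 1 mean per group, all 12 arrays (6 residual degrees of freedom), an intensity trend in eBayes and Benjamini-Hochberg adjustment over the 21906 probe sets of a contrast. Tests were two-sided. The number of arrays limits the precision. The fit was tested on simulated data.

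The members and the gene lists were chosen with earlier results of these data known. Named were all member probe sets, the 4 brightest genes of each list that was not a marker list, the 6 genes most like Gimap7 and most like the family mean, and 4 protein-coding neighbours on each side. Lists used the brightest probe set of a gene. Marker genes, and examples from the marker lists, were named for the cell type they define. Alternatives were other normalizations, pseudocounts, filters, variance models, probe set choices, a replicate block, a term for the control-probe division, and each array left out.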

Additional observations from a re-analysis of the deposited data

Results flagged for a closer look

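In 6 tests, on 5 member probe sets, the response to anti-IgM differed between cko and wild-type cells by the test of the interaction itself (log2 difference of the 2 responses, cko minus wild type). At 2 h it was Gimap6 1427891_at (0.73, adjusted p = 0.0015 in limma), which the other Gimap6 probe set did not share. At 12 h Gimap6 gave 1.40 (adjusted p = 9.7e-07) on 1427891_at and 1.65 (adjusted p = 3.4e-08) on 1456762_at, and Gimap5 gave 0.71 (adjusted p = 0.0033). Gimap3 gave -0.65 (adjusted p = 0.0031) and Gimap4 1424375_s_at gave -0.55 (adjusted p = 0.00025), opposite in sign to Gimap6 and Gimap5, while the other Gimap4 probe set, 1424374_at, gave 0.018 (adjusted p = 0.95). The 12 h values cross the division of the arrays by control probes, and its part in them cannot be told apart from that of the genotype.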

How the results depend on the processing

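With 2 arrays per group, the counts of called members varied most at 0 h and 2 h. The genotype counts here are over all 11 probe sets, so they include Gimap7, whose 1425084_at is 1 of the 6 at 12 h. Nothing is read from the part of Gimap7 in these counts, since its signal chose the family. At 0 h 6 of 11 were called, 2 without an intensity trend (6 at an unadjusted p under 0.05), and 3 to 7 without 1 array, the low counts coming without either wild-type array of 0 h. At 2 h 4 were called, 0 without a trend in limma (3 at an unadjusted p under 0.05), and 0 to 4 without 1 array, with 0 when the first cko or the second wild-type array of 2 h was left out. At 12 h 6 were called, and 3 for the genotype term of an additive model with the control-probe division, which by its construction takes the genotype from 0 h and 2 h alone; without 1 array it was 4 to 6. The interaction counts of 1 at 2 h and 5 at 12 h stayed at those values without any 1 array. The replicate block gave 7, 4 and 6 calls at 0, 2 and 12 h and 1 and 5 interactions. Replicate numbers share only a number (deviations correlated at -0.013 to 0.0207), so the block is no pairing. Gimap6 at 12 h kept its higher call in every setting that fitted the 12 h difference itself, at 0.81 to 1.19 and 1.70 to 2.07 on its probe sets, whereas in the additive model neither probe set was called (-0.066, adjusted p = 0.77, and 0.15, adjusted p = 0.15). Scaling to the same median moved the median of all probe sets at 2 h by 0.29 in cko and 0.20 in wild-type cells, and at 12 h by 0.29 in cko cells.

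The median response of the members kept its sign throughout. The additive model with the division has 1 time term shared by both genotypes, with a median of -1.49 at 2 h and -1.50 at 12 h, and at 12 h only the wild-type arrays lie in the same set as those of 0 h. That model sets its division term from the 12 h genotype difference beyond the genotype term, and this shifts the 2 h terms. Its 2 h term for Gimap6 1456762_at was -1.56, where the main fit gave 0.09 in cko and 0.21 in wild-type cells. For Gimap6 1427891_at the term was -1.32, and the main fit gave 0.09 and -0.65. The term was -0.85 for Gimap5, -1.04 for Gimap8 and -1.41 for Gimap4 1424375_s_at. At 2 h in cko cells the median over the members was -0.999 with median scaling, -1.39 and -1.03 with pseudocounts of 1 and 64, and -1.55 to -1.02 without 1 array. At 2 h in wild-type cells it was -1.01 with median scaling, -1.04 with a pseudocount of 64, -1.44 on the brightest probe set per gene, and -1.34 to -0.98 without 1 array. At 12 h it was -0.83 and -1.26 in cko cells with median scaling and the brightest probe sets, and -1.31 to -1.01 without 1 array, and -1.61 to -1.41 in wild-type cells without 1 array. Small values that turned were Gimap9 at 2 h (0.20 in cko and 0.10 in wild type with median scaling, -0.51 to 0.34 in cko and -0.37 to 0.17 in wild type without 1 array, turning without the first array of 0 h), Gimap5 at 2 h in cko cells (0.15 with median scaling) and the 2 h interaction of Gimap7 1444283_at (0.072 with median scaling, 0.0053 with a pseudocount of 64, -0.30 to 0.26 without 1 array). The cause of these changes was not tested.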
